A study of Mus musculus with 4 samples.

Results

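Adipoq, Lep, Retn, Cfd, Plin1, Fabp4 and Car3 are genes that white fat cells are known for, and they were followed here in RNA-seq libraries of mouse liver. They are 7 of the 37315 genes in the count files, and each matched 1 row of the files by its symbol in GENCODE release M21. The 7 were picked from their own reads in these libraries, mainly for the contrast between replicate 2 and replicate 1, so every value of that contrast below is a description and carries no test. The study compared the liver of wild-type mice (WT) with that of Fto knockout mice (KO). Both groups were of strain C57BL/6 and 23 weeks old, with 2 libraries of polyadenylated RNA each. The labels do not say in which cells or by which allele Fto was disrupted, whether each library came from 1 animal, or how the tissue was dissected. They also do not say that equal replicate numbers share an animal, a batch or a day. Read counts below name replicate 1 first, so that Fto itself, with 1749 against 1292 reads in WT and 607 against 486 in KO, was lower in both KO libraries.

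White fat cells store triglyceride in a single large droplet and secrete hormones. Adiponectin (Adipoq) acts on liver and muscle through the receptors AdipoR1 and AdipoR2, leptin (Lep) acts mainly on the brain to report fat stores, and resistin (Retn) is a cysteine-rich hormone that in mice comes from fat cells. Adipsin (Cfd), or complement factor D, is a serine protease that cleaves factor B in the alternative complement pathway. Perilipin 1 (Plin1) coats the droplet of fat cells and gates its lipolysis, and the fatty acid binding protein Fabp4 carries fatty acids in the cytosol. Carbonic anhydrase 3 (Car3) is an abundant cytosolic enzyme of fat cells. Fabp4 is also made by capillary endothelium and macrophages, and Car3 by slow skeletal muscle and, in male rodents, by hepatocytes. Adiponectin, leptin and perilipin 1 are therefore the more specific marks of fat cells among the 7. PPARγ and the C/EBP factors are the regulators best known to switch these genes on in fat cells.

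RefSeq (GRCm38.p6) promoter windows were found for 5 of the 7 genes (not for Fabp4 and Car3), each from 250 bases before to 50 bases after the RefSeq start of the gene. They are shown for Adipoq, Lep and Plin1, the genes with the least reads in the libraries of replicate 1. Capitals mark matches, on either strand, to the C/EBP core TTGCNNAA (Lep and Plin1) or to the CCAAT box CCAAT (Adipoq).
Adipoq, chr16:23146286-23146585, plus strand: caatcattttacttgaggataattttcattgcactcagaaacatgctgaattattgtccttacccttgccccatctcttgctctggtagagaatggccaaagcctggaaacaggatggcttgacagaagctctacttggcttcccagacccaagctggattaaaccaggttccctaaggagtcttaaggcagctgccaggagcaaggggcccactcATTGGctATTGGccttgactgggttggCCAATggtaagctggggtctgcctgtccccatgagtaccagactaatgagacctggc
Lep, chr6:29059971-29060270, plus strand: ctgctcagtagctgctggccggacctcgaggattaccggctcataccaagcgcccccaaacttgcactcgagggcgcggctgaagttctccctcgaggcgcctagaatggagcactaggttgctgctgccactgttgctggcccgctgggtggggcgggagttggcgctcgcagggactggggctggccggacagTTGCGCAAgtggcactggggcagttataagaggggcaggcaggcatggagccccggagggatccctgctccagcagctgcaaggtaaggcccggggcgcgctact
Plin1, chr7:79732727-79733026, minus strand: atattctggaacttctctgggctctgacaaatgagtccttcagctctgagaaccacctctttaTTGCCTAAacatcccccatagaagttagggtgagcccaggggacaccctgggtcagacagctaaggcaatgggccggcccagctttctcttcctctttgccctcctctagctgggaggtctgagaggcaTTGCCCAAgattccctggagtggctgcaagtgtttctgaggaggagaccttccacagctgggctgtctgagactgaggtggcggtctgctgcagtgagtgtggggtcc
In Lep the C/EBP core TTGCGCAA begins 55 bases before the start, and it reads the same on both strands. Plin1 holds the core TTGCCTAA at 187 bases and TTGCCCAA at 58 bases before its RefSeq start. The GENCODE span of Plin1 starts further upstream, at 79732903 on the minus strand, so TTGCCCAA lies inside that span and TTGCCTAA before it. Of 32851 promoter windows of this length, 10.8% hold the core. Adipoq holds the CCAAT box 3 times, and 37.4% of all windows hold it at least once. No window of the 5 held the TATA box TATAAA (13.6% of all windows) or the consensus direct repeat of PPAR receptors (0.0396% of all windows). The windows of Retn and Cfd held none of the motifs searched. A match is a stretch of letters and not a measured site.

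The libraries held between 39549592 and 44689114 counts, and 3 reads, the floor set for lower replicate 1 counts, equal 0.0649 to 0.0788 CPM. The 95% exact upper limit of a count of 0 was 3.69 reads. Levels below are CPM, a gene's counts scaled to library size with TMM factors, and ratios carry 95% exact intervals that cover counting error only. The libraries were liver by their markers: the 9 hepatocyte genes measured (Alb, Apob, Cyp2e1 and others) took between 9.10% and 10.5% of the counts, and none was at 0. In bulk tissue, fewer cells of a type and less RNA per cell cannot be told apart.

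The hormone genes Adipoq and Lep were present in both libraries of replicate 2 and at or near 0 in both libraries of replicate 1. For Adipoq, replicate 1 against replicate 2 gave 1 against 70 reads in WT and 0 against 71 in KO. In CPM these were 0.0236 against 1.84 in WT and 0 against 1.77 in KO. The gene lies on chromosome 16 (23146536 to 23158028, plus strand, mm10). Replicate 2 exceeded replicate 1 by a ratio of 78.0 in WT (interval from 13.5 to 3124) and was at least 27.3-fold higher in KO. This bound takes 3 reads for replicate 1 and leaves out the counting error of replicate 2; the exact lower limit of the ratio was 21.7. Lep (chromosome 6, 29060220 to 29073877, plus strand) had 0 against 41 reads in WT and 0 against 36 in KO, or 1.08 and 0.900 CPM in the replicate 2 libraries. Its level in replicate 2 was at least 15.2-fold higher in WT and at least 13.9-fold higher in KO by the same bound, with exact lower limits of 11.8 and 10.7. For both genes the libraries thus split by replicate number and not by genotype. Retn (chromosome 8, 3655770 to 3660110, plus strand) was sparser, with 5 against 17 reads in WT and 0 against 5 in KO. The ratio for Retn was 3.79 in WT (interval from 1.34 to 13.1), and the 5 reads of KO replicate 2 were at least 1.93-fold above replicate 1 by that bound, with an exact lower limit of 1.06.

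**Figure D1:**
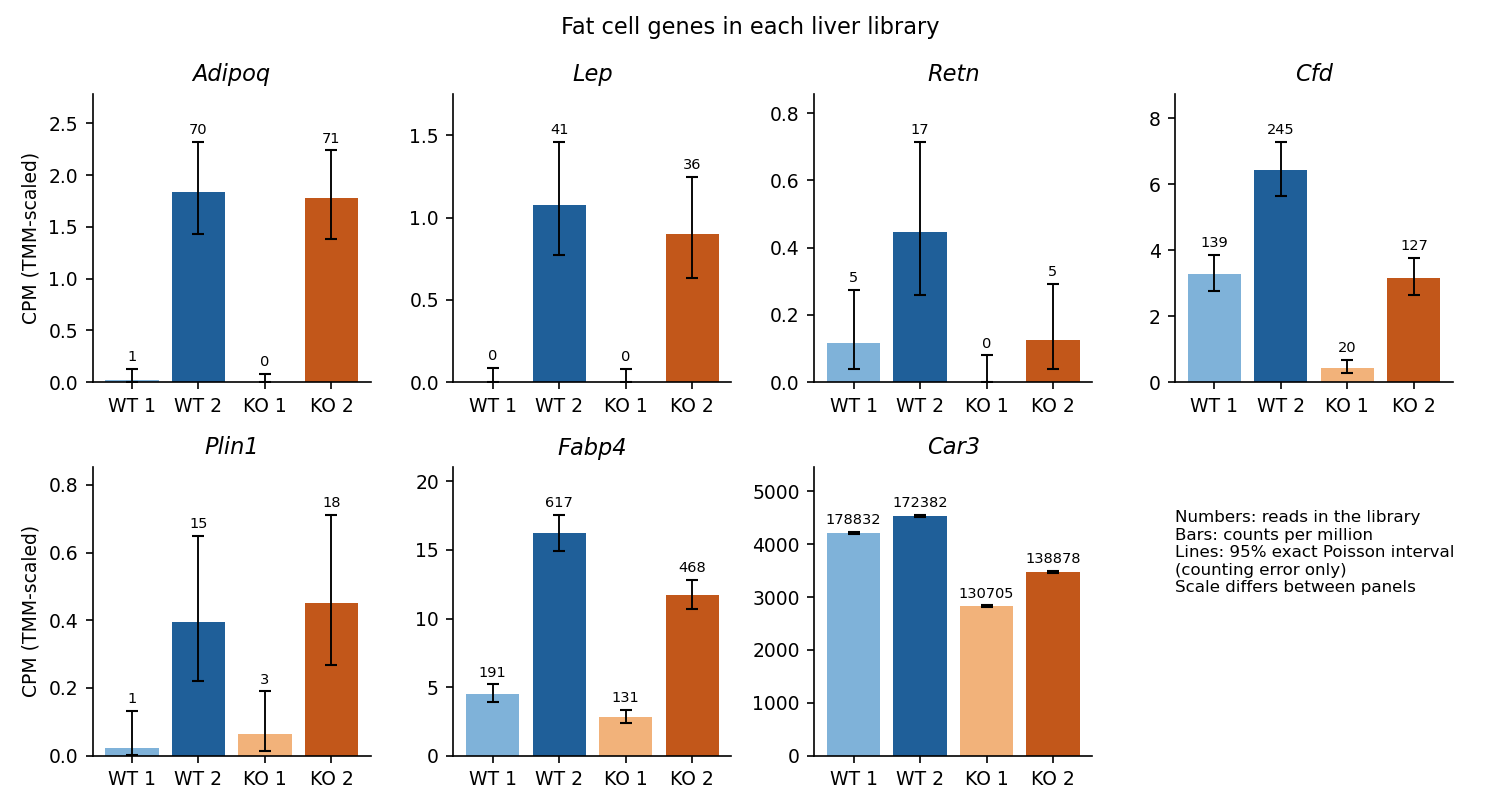
Level of each of the 7 genes in each liver library, in CPM after TMM scaling, with 95% exact Poisson intervals and the number of reads above each bar; the vertical scale differs between panels. Adipoq has 70 and 71 reads in the replicate 2 libraries and 1 and 0 in the replicate 1 libraries, while Car3 has between 130705 and 178832 reads everywhere.

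The droplet gene Plin1 followed the same order with few reads. It had 1 against 15 reads in WT and 3 against 18 in KO (chromosome 7, 79720218 to 79732903, minus strand), a ratio of 16.7 in WT (interval from 2.57 to 703.5) and 6.93 in KO (interval from 2.02 to 36.7). Fabp4 (chromosome 3, 10204088 to 10208576, minus strand) was measured well in every library, with 191 against 617 reads in WT and 131 against 468 in KO. Its level went from 4.50 to 16.2 CPM in WT, a ratio of 3.60 (interval from 3.05 to 4.26). In KO it went from 2.83 to 11.7 CPM, a ratio of 4.13 (interval from 3.39 to 5.05). Unlike Adipoq and Lep, Fabp4 kept a clear level where the fat cell hormones were at or near 0. The protease gene Cfd (chromosome 10, 79890853 to 79892655, plus strand) did so in WT replicate 1 and was low in KO replicate 1. It had 139 against 245 reads in WT, 3.28 against 6.44 CPM, a ratio of 1.96 (interval from 1.59 to 2.44). In KO it had 20 against 127 reads, 0.433 against 3.17 CPM, a ratio of 7.34 (interval from 4.56 to 12.4). The counting intervals of the Cfd ratio in WT and in KO did not overlap, whereas those of Fabp4 did; with 1 library on each side, these differences between genotypes were not tested.

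Car3 did not follow the other 6. It had 178832 against 172382 reads in WT and 130705 against 138878 in KO (chromosome 3, 14863512 to 14872523, plus strand), or 0.433% against 0.436% of all counts in WT and 0.292% against 0.339% in KO. Replicate 2 exceeded replicate 1 by a ratio of 1.07 in WT (interval from 1.07 to 1.08) and 1.23 in KO (interval from 1.22 to 1.24). With library size alone as the scale, the log2 ratio in WT was 0.01 in place of 0.10. Per kilobase of the longest coding transcript, Car3 was at 1684 to 2697 CPM, far above Fabp4 (3.16 to 18.1) and Cfd (0.469 to 6.98). Adipoq came next at up to 1.42 CPM per kilobase, then Retn at up to 0.392, Lep at up to 0.331 and Plin1 at up to 0.160. The reads of Car3 exceeded those of Adipoq in WT replicate 2 by a ratio of 2463. Car3 was thus high in every library, including those in which Adipoq, Lep and Plin1 had at most 3 reads.

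**Figure D2:**
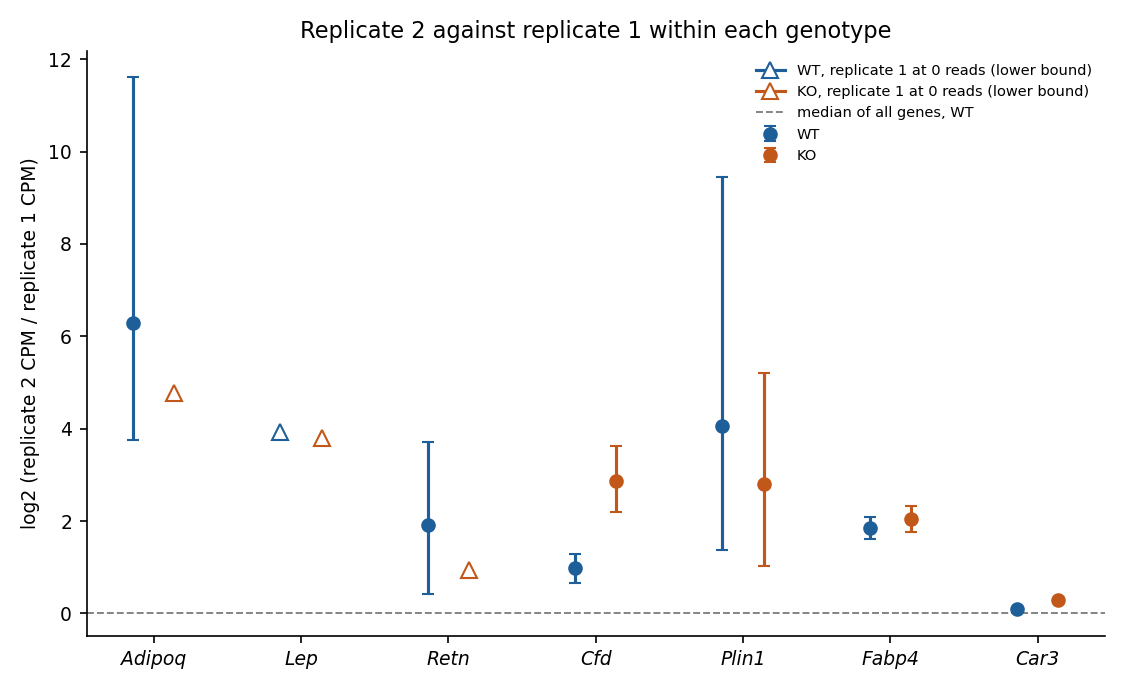
Log2 ratio of replicate 2 over replicate 1 for each gene in WT and in KO, with 95% exact intervals; open triangles are bounds that take 3 reads where replicate 1 had 0, and the dashed line is the median of all genes in WT. Adipoq lies highest in both genotypes, with Lep and Plin1 among the next, Fabp4 lies at 1.85 and 2.05, and Car3 at 0.10 and 0.30.

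Over the 16331 genes with at least 10 reads in total, replicate 2 was at least 2-fold above replicate 1 in both genotypes for 117 genes, 0.716%, counting any replicate 1 value under 3 reads as 3. Adipoq, Lep, Plin1 and Fabp4 were among them. Cfd, with a log2 ratio of 0.97 in WT, and Retn, with 0.95 in KO, fell just outside, and Car3 far outside. The median log2 ratio over all these genes was 0.01 in WT and -0.02 in KO. Replicate 2 was higher in both genotypes for all 7 genes, against 33.5% of all genes. The opposite, a replicate 2 level at most 0.5 times that of replicate 1 in both genotypes, held for 3.04% of all genes and for none of the 7. Since the genes were picked for this contrast, nothing is read from these counts.

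The replicate 2 libraries also differed from the replicate 1 libraries by transcript length. Among protein-coding genes with at least 40 reads, the median log2 ratio was 0.35 in WT and 0.20 in KO for longest transcripts under 1000 bases, a class that holds Cfd (922 bases) and Fabp4 (896 bases). It was 0.25 and 0.15 from 1000 to 2000 bases, the class of Adipoq, Retn and Car3, and 0.06 and 0.04 from 2000 to 4000 bases, the class of Lep and Plin1. Its part in the ratios was not tested. The log2 ratios of Car3, 0.10 in WT and 0.30 in KO, lay on either side of the medians of its length class, while the ratios of Fabp4 exceeded those of its class.

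Within the replicate 2 libraries the reads of the other genes were set against those of Adipoq. Lep had 0.586 reads for each Adipoq read in WT (interval from 0.388 to 0.873) and 0.507 in KO (interval from 0.330 to 0.768). Plin1 had 0.214 (interval from 0.114 to 0.378) and 0.254 (interval from 0.142 to 0.430). The counting intervals of the genotypes overlapped for both genes. They also overlapped for Fabp4, with 8.81 reads per Adipoq read in WT (interval from 6.88 to 11.5) and 6.59 in KO (interval from 5.13 to 8.58). For Cfd they did not, with 3.50 (interval from 2.67 to 4.63) and 1.79 (interval from 1.33 to 2.43). Taking only the amount by which replicate 2 exceeded replicate 1, for each CPM of that difference in Adipoq, Cfd differed by 1.74 CPM in WT and 1.54 CPM in KO, and Fabp4 by 6.45 and 4.99. With 1 library for each value these are descriptions of the libraries and not of the genotypes.

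For white fat cells, 22 other genes were listed, and 20 of them had at least 10 reads in total. Of these 20, 7 were higher in replicate 2 in both genotypes, and 2 were at least 2-fold higher in both. Over all genes the shares were 33.5% and 0.716%, so the count of 7 is near the background. The 2 genes were Sncg and Cidec. Sncg encodes γ-synuclein, which white fat cells and peripheral neurons make, and had 3 against 29 reads in WT and 5 against 26 in KO, ratios of 10.8 (interval from 3.34 to 55.2) and 6.01 (interval from 2.27 to 20.03). Cidec encodes a droplet protein that fuses lipid droplets and is also made in fatty liver. It had 1153 against 2220 reads in WT and 268 against 539 in KO, ratios of 2.15 and 2.32. The median log2 ratio of the list was 0.50 in WT and -0.14 in KO.

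Among the other listed genes, some were higher in replicate 2 in 1 genotype or in neither. The insulin-responsive glucose transporter Slc2a4 had 4 against 21 reads in WT and 9 against 6 in KO, and the adipogenin gene Adig had 0 against 10 in WT and 4 against 0 in KO. Pnpla3, a lipase-related gene of fat and liver, was higher in both genotypes by unlike amounts, with 20 against 120 in WT and 9 against 10 in KO. Trarg1, a partner of glucose transporter traffic in fat, was also higher in both, with 7 against 10 in WT and 8 against 22 in KO. Lpl, Cidea and Cd36 were higher in both as well, none of them 2-fold in both. Lpl had 202 against 272 reads in WT and 661 against 709 in KO, and Cidea 1303 against 1625 and 15 against 32. Cd36 had 5590 against 6675 in WT and 1445 against 1326 in KO. In KO its scaled level was higher only within counting error. Hormone-sensitive lipase (Lipe) had 855 against 664 in WT and 695 against 667 in KO, and the adrenergic receptor gene Adrb3 had 217 against 128 in WT and 479 against 214 in KO, so neither was higher in both libraries of replicate 2. The natriuretic peptide receptor gene Npr3, the receptor gene Hcar2, the growth factor gene Nrg4 and Mest ranged from 8 to 375 reads and were likewise not higher in both. Listed genes with fewer than 10 reads in every library lay at the limit of what the depth could show, and differed in direction. The transporter gene Slc7a10 had 0 against 4 reads in WT and 0 against 3 in KO, and Hcar1 0 against 2 and 0 against 1. Acvr1c had 7 against 4 reads in WT and 5 against 1 in KO, and Aqp7 3 against 3 and 6 against 3. Lgals12 had 3 against 7 reads in WT and 1 against 1 in KO.

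**Figure D3:**
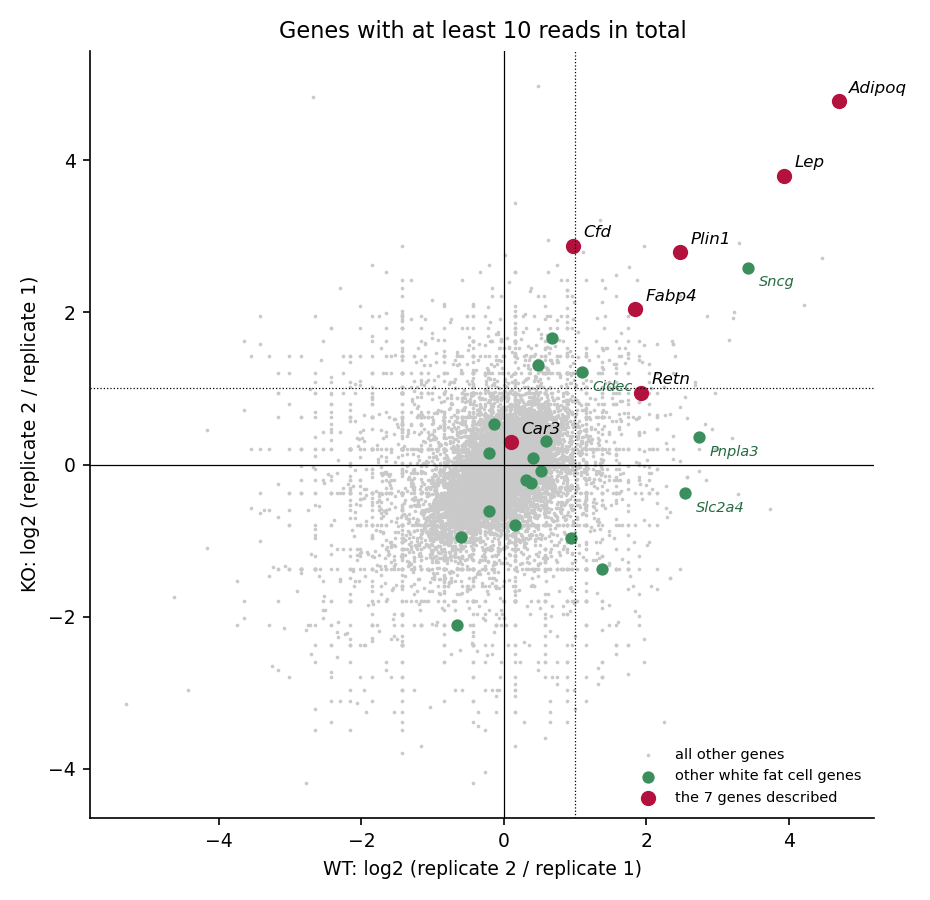
Log2 ratio of replicate 2 over replicate 1 in WT (horizontal) against KO (vertical) for genes with at least 10 reads in total, with replicate 1 counts under 3 set to 3; dotted lines mark a 2-fold ratio, and genes with 0 reads in a replicate 2 library are left out. Adipoq and Lep lie alone at the upper right, Sncg is the nearest of the other white fat cell genes, and Slc2a4 and Pnpla3 lie past the 2-fold line in WT and not in KO.

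Marker lists of other cell types that a liver piece could hold differed in how they lay beside the replicate number. Of the brown fat list, Ucp1, the uncoupling protein that defines brown fat, had 0 reads in 3 libraries and 1 read in WT replicate 2. The list summed to 14403 against 11514 reads in WT and 11528 against 8647 in KO, nearly all of them from Elovl3. The ratio of Elovl3 was 0.888 in WT and 0.867 in KO. Cox7a1 had 31 against 52 reads in WT and 37 against 32 in KO. Of the 5 brown fat genes with at least 10 reads in total, none was higher in replicate 2 in both genotypes. The 12 pancreas acinar genes had 2 to 6 reads per library together, and 8 were at 0 in all 4 libraries. The list of mesothelium, which lines the liver and the abdominal fat, had 9 genes measured, with 266 against 224 reads in WT and 189 against 273 in KO. Its genes Upk3b and Msln had ratios of 0.977 and 1.03 in WT and 1.67 and 2.03 in KO. Fat stroma and fibroblast genes summed to 216 against 268 CPM in WT and 210 against 230 CPM in KO. Most of this was Dcn and Dpp4. Dcn rose from 78.0 to 124 CPM in WT and from 78.2 to 103 CPM in KO. Dpp4 was flat, at 117 against 118 CPM in WT and 106 against 106 CPM in KO. The median log2 ratio of the list was 0.31 in WT and -0.04 in KO. Of 11 genes with at least 10 reads, 5 were higher in both genotypes, beside 33.5% of all genes, and none was 2-fold higher in both. The gut list, which at 1336 to 5820 reads was nearly all Lgals4 and Fabp2, also summed higher in replicate 2. Its sum was 126 against 188 CPM in WT and 84.4 against 115 CPM in KO. Its genes Sis, Cdx2, Cdx1 and Alpi were at 0 in all libraries. The bile duct list summed to 26.7 against 39.6 CPM in WT and 34.1 against 45.1 CPM in KO, with Spp1 its most abundant gene, while Krt19 had 42 against 24 reads in WT and 39 against 35 in KO. The skeletal muscle list summed to 43 against 33 reads in WT and 43 against 53 in KO. Its most-read gene, the myosin light chain Mylpf, had 35 against 17 in WT and 34 against 28 in KO, the fast myosin Myh4 had 0 against 9 in WT and 0 against 8 in KO, and creatine kinase (Ckm) had at most 1 read. Their part in the results on the 7 genes was not tested.

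Endothelium and macrophages, which also make Fabp4, were set beside it. The 11 endothelium genes summed to 118 against 167 CPM in WT and 142 against 124 CPM in KO. The 8 macrophage genes summed to 107 against 161 CPM in WT and 239 against 251 CPM in KO. The macrophage sum was higher in replicate 2 in both genotypes, but only slightly in KO. Of its 8 genes, 4 were higher in both, beside 33.5% of all genes. The median log2 ratio of the macrophage list was 0.63 in WT and -0.03 in KO, against 1.85 and 2.05 for Fabp4. The endothelium sum was higher in replicate 2 in WT and lower in KO. Of its 11 genes, 5 were higher in both, beside 33.5% of all genes. The median log2 ratio of the endothelium list was 0.61 in WT and -0.22 in KO. The part of either cell type in the level of Fabp4 was not tested.

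The protein-coding genes most like Adipoq and Lep were ranked by the lower of the WT and KO log2 ratios of replicate 2 over replicate 1, over 4 libraries and 11497 genes with at least 20 reads in each replicate 2 library. Adipoq ranked 1 and Lep 2, and Fabp4 ranked 6, Cfd 24 and Car3 3117. The 10 nearest genes besides the 7 were Sncg, Prph, Gm2564, Mesp2, Defb1, P2ry14, Nemp2, Cd79a, Zc4h2 and Slc1a5. Prph, which encodes peripherin, an intermediate filament of peripheral neurons, had 5 against 27 reads in WT and 5 against 20 in KO. Cd79a, a part of the B cell receptor, had 13 against 29 in WT and 11 against 36 in KO. Apart from Sncg, with a lower log2 ratio of 2.59, these genes lay between 1.13 and 2.21, and Lep at 3.79. The ranking uses the contrast by which the 7 were picked, and genes with fewer reads in replicate 2 could not enter it, so the ranks of the 7 are a description only.

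Between genotypes, none of the 7 genes was called with genotype as the only term of the fit. Of the 7, 6 passed the filter on low counts and were tested with all 13836 genes by edgeR's quasi-likelihood test, of which 1.91% were called at an adjusted p under 0.05, 0.947% lower and 0.961% higher in KO. DESeq2 called none of the 7 either, and without adjustment only Car3 had a p under 0.05 in edgeR (0.0340), as did 1800 of all genes. Retn did not pass the filter. Adipoq averaged 0.931 ± 1.28 CPM in WT against 0.887 ± 1.25 CPM in KO (SD, n = 2 per genotype), with a log2 change of -0.08 (SE 1.69, adjusted p = 0.995, edgeR). For Lep the log2 fold change was -0.27 (SE 1.65, adjusted p = 0.978, edgeR) and for Plin1 0.30 (SE 1.15, adjusted p = 0.964, edgeR). The SD of Adipoq and of Lep exceeded the mean in both genotypes, and the SE shows how little the test could resolve. Fabp4 averaged 10.4 ± 8.28 CPM in WT against 7.26 ± 6.27 CPM in KO (SD, n = 2 per genotype; log2 change -0.51, SE 0.763, adjusted p = 0.869, edgeR).

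Cfd and Car3 were the members whose genotypes did not overlap. Cfd averaged 4.86 ± 2.23 CPM in WT against 1.80 ± 1.94 CPM in KO (SD, n = 2 per genotype; log2 change -1.44, SE 0.733, adjusted p = 0.477, edgeR). Its lowest WT library, at 3.28 CPM, lay barely above its highest KO library, at 3.17 CPM. Car3 averaged 4373 ± 220.3 CPM in WT against 3149 ± 454.8 CPM in KO (SD, n = 2 per genotype; log2 change -0.47, SE 0.184, adjusted p = 0.329, edgeR). The genotypes did not overlap for 42.0% of all tested genes, 20.4% with KO lower, so this count of 2 among 7 is near the background.

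Compared within a replicate number, Cfd was lower in KO both times. Between the replicate 1 libraries, with 1 and 0 Adipoq reads, WT exceeded KO for Cfd by a ratio of 7.58 (interval from 4.72 to 12.8). Between the replicate 2 libraries, with 70 and 71 Adipoq reads, the ratio was 2.03 (interval from 1.63 to 2.53). For Fabp4 the ratio was 1.59 (interval from 1.27 to 2.001) between the replicate 1 libraries and 1.39 (interval from 1.23 to 1.57) between those of replicate 2. Car3 gave 1.49 and 1.30, both with KO lower. Adipoq, Lep and Plin1 did not differ beyond counting error between the replicate 2 libraries, with KO over WT ratios of 0.965 (interval from 0.684 to 1.36), 0.835 (interval from 0.519 to 1.34) and 1.14 (interval from 0.543 to 2.43). Retn had 17 reads in WT and 5 in KO there, a WT over KO ratio of 3.57 (interval from 1.27 to 12.4). Each of these comparisons is between single libraries and has no replicate check, and no label pairs libraries by number. The part of fat cell reads in these ratios was not tested.

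Leaving out 1 library moved the fitted change of every tested member, most of all for Adipoq and Lep. Each such fit leaves 1 library in a genotype, so only the sizes of change are given. Without WT replicate 2 the fitted log2 fold change of Lep was 7.26, and without KO replicate 2 it was -7.49. In each case 1 genotype was left at 0 reads, so the size of these values depends on the prior count. Adipoq had 5.05 and -8.28 in the same fits. Fabp4 was lower in KO without KO replicate 2 (-1.87) and without WT replicate 1 (-1.16). It had the opposite sign without WT replicate 2 (0.68) or KO replicate 1 (0.18). Cfd was lower in KO without KO replicate 2 (-3.48) and without WT replicate 1 (-1.85). It stayed negative without WT replicate 2 (-0.88) and KO replicate 1 (-0.61). Car3 lay between -0.64 and -0.33 in the 4 fits.

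**Figure D4:**
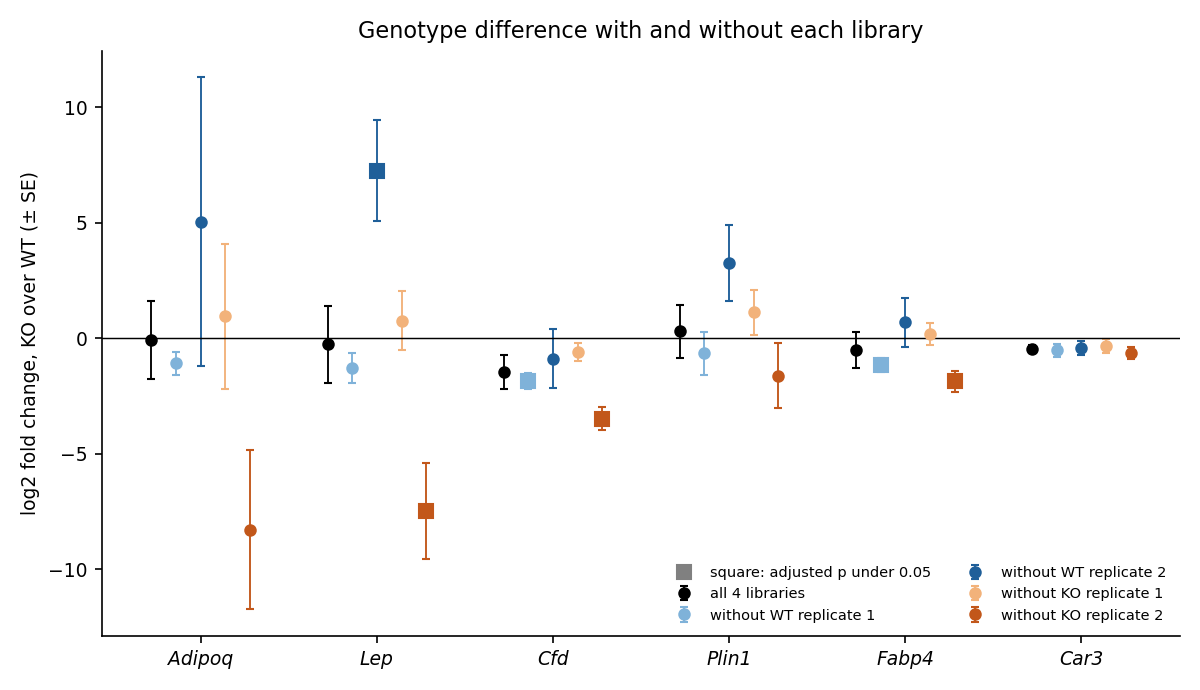
Log2 fold change of KO over WT with its standard error for the 6 tested genes, from the edgeR fit of all 4 libraries and from the fits without each library; squares mark an adjusted p under 0.05. Lep takes opposite signs (7.26 and -7.49) when the replicate 2 library of one or the other genotype is left out, while Car3 stays between -0.64 and -0.33. Squares of fits without a library rest on 1 library in a genotype, and nothing is read from them.

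The list of 22 other white fat cell genes held 15 tested genes. Of these, 4 were called lower in KO and 1 higher, beside the share of 1.91% over all genes. Their median log2 fold change was -0.34, against 0.01 over all tested genes. The lists were chosen with earlier results of these data known, so nothing is read from this count. Lower in KO were Cd36, which takes up fatty acids (-2.25, adjusted p = 0.00323, edgeR), the droplet genes Cidea (-6.05) and Plin4 (-1.81), and the regulator Pparg (-1.31). The higher gene was the lipase Lpl (1.43, adjusted p = 0.0369, edgeR). Hepatocytes can make all 5 of these genes, and their reads in the replicate 1 libraries, where Adipoq had 1 and 0 reads, ran from 15 for Cidea in KO to 5590 for Cd36 in WT. Replicate 2 was higher in both genotypes for Cd36, Cidea and Lpl, in WT only for Pparg and in neither for Plin4. Of 16 further fat cell genes that hepatocytes also make, Scd1 (-1.66) and Me1 (-1.43), enzymes of fatty acid synthesis, were called lower and none higher. Cidec had a log2 fold change of -2.15 and was not called (adjusted p = 0.0711, edgeR). The part of fat cell reads in these values was not tested.

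The receptors for adiponectin and leptin were measured in all libraries, also where Adipoq and Lep had at most 1 read. The adiponectin receptor genes Adipor1 and Adipor2 averaged 115 ± 1.37 and 656 ± 44.0 CPM in WT against 123 ± 2.76 and 620 ± 70.1 CPM in KO (SD, n = 2 per genotype), with log2 fold changes of 0.10 and -0.08 that were not called. The leptin receptor gene Lepr had 34 against 26 reads in WT and 205 against 170 in KO and rose (log2 change 2.54, SE 0.287, adjusted p = 0.00739, edgeR). Complement C3 and factor B (Cfb), the partners of adipsin, had log2 fold changes of 0.30 and 0.63 and were not called. Lepr was the only called gene of the 10 measured on this list of receptors and partners, beside 1.91% of all tested genes.

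Of 25 close relatives of the 7 genes with at least 10 reads, 10 were higher in replicate 2 in both genotypes and none was 2-fold higher in both, beside 33.5% and 0.716% of all genes, so neither count stands apart from the background. Fabp5, which lies 187481 bases from Fabp4 on chromosome 3, had 116 against 193 reads in WT and 904 against 2710 in KO. It was called higher in KO (log2 change 3.48, adjusted p = 0.0306, edgeR). Of the 21 relatives tested, 1 was called higher, Fabp5, and 1 lower, Plin4 (-1.81), beside 1.91% of all tested genes. The resistin relatives Retnla, Retnlb and Retnlg had at most 3 reads in any library. Among the perilipins, Plin2, the main droplet coat of hepatocytes, was at 977 against 1190 CPM in WT and 613 against 856 CPM in KO. Car5a and Car8, genes of the carbonic anhydrase family, averaged 56.1 ± 1.13 and 74.9 ± 6.06 CPM in WT against 58.3 ± 3.70 and 66.3 ± 8.33 CPM in KO (SD, n = 2 per genotype). Neither was called.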

How the data were processed

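Polyadenylated RNA of mouse liver was sequenced as paired reads, with 2 WT and 2 KO libraries. The deposited files hold 1 whole-number count per Ensembl gene, not normalised by the authors. Per the submitters' processing notes, TopHat2 2.1.1, HTSeq 0.6.0 and mm10 were used; the sources used here do not give the annotation or strand setting. Symbols, positions and lengths came from GENCODE M21 on the same assembly (35449 of 37315 identifiers); the listed symbols Muc16, Tf and Masp3 had no row and are not analysed here. Counts were tested in edgeR 4.0.16 (filterByExpr with minimum count 10 and minimum total 15, TMM, robust quasi-likelihood F test, two-sided, genotype as the only term, Benjamini-Hochberg over 13836 genes). SE is the fitted log2 change over the root of its F value. For near-identical relatives and overlapping genes, reads may be shared, and without strand an antisense gene cannot be told apart. Ratios of 2 libraries used TMM-scaled totals and exact conditional binomial intervals. The procedure was tested on simulated data, with changes put only into genes that averaged at least 1 CPM. Adipoq, Lep, Retn and Plin1 averaged less, so recovery was not measured at their level. Alternatives were DESeq2 1.42.0, its size factors, library size alone, no filter, a replicate block and leaving out each library. No label ties libraries to separate animals; p-values thus reflect how far these libraries spread, which may be technical. Reads carried no molecular identifiers, so intervals cover counting error only. Members and lists were chosen with earlier results of these data known. Named genes were the 7, list genes with at least 10 reads in a library (white fat) or the most reads (other lists), and the 10 most alike by rank; further list genes were chosen after their values were seen.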

Additional observations from a re-analysis of the deposited data

Results flagged for a closer look

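Of the genes named by rule, 5 had counting intervals that put replicate 2 above replicate 1 in one genotype and below it in the other; the difference was not tested, since each ratio compares 2 single libraries. None of them was among Adipoq, Lep, Retn, Cfd, Plin1, Fabp4 and Car3. Kdr, a receptor of endothelium, had a ratio of 1.52 in WT and 0.717 in KO, and Stab2, a scavenger receptor of sinusoidal endothelium, 1.14 and 0.798. Nrg4, a growth factor of fat cells, had 1.30 and 0.847. The macrophage receptor gene Csf1r had 1.12 and 0.884, and the retinol carrier gene Rbp4 1.02 and 0.849.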

How the results depend on the processing

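The number of genes called between genotypes was 264. It was 559 with DESeq2, 829 when low counts were kept and 2729 with the replicate block, and it ranged from 460 to 633 when 1 library was left out. Of the 7 genes none was called by edgeR with all libraries, with DESeq2, with either other scaling or without the filter. The replicate block called 3, Car3 (-0.48), Cfd (-1.73) and Fabp4 (-0.56), and leaving out 1 library called 0 to 3. Numbers only name the libraries: no label pairs them, although deviations of libraries with equal numbers correlated across 13836 genes (r = 0.429), and genes are not independent. Leaving out 1 library moved the log2 fold change from -8.28 to 5.05 for Adipoq, -7.49 to 7.26 for Lep, -1.61 to 3.26 for Plin1, -1.87 to 0.68 for Fabp4, -3.48 to -0.61 for Cfd and -0.64 to -0.33 for Car3; in these fits the lone library is assumed to vary like the pair. The count of genes 2-fold higher in replicate 2 fell from 117 to 54 when at least 40 reads in total were asked for, where fewer genes could qualify. No scaling turned the direction of replicate 2 over replicate 1 for any of the 7 genes. Depth limits Retn and Plin1, with at most 18 reads.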
